A study of Mus musculus with 9 samples.

Results

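The genes described here build, acidify and fill the lysosome, the organelle in which cells digest proteins, sugars and lipids to recover their building blocks. They were chosen by gene symbol and number 40 of the 20189 genes in the count table. Of these, 15 encode subunits or accessory proteins of the V-ATPase, 7 encode proteins of the lysosomal membrane or, for Npc2, a soluble carrier that works with one of them, 15 encode hydrolases or their activator precursor Psap, and 3 encode the transcription factors Tfeb, Tfe3 and Mitf. All samples were wild-type E14 cells, a single line of mouse embryonic stem (ES) cells kept undifferentiated with serum and LIF. Poly(A) RNA was sequenced after 3 h without threonine (Thr-starved, 3 libraries), after 3 h without cysteine (Cys-starved, 3 libraries) and from control cells in medium holding every amino acid (unstarved, 3 libraries), for which no time is stated. Which medium was used for the Thr-starved and Cys-starved cells that were sequenced is not given in the sources used here. Nothing in the labels says that the 3 libraries of a group came from separate cultures, so p-values measure only the spread between these libraries.

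The V-ATPase is a rotary proton pump. Its cytosolic V1 sector hydrolyses ATP, and its membrane V0 sector carries protons into the lumen, where the hydrolases need an acid pH. The surface of the lysosome is also where mTORC1 is switched on by amino acids, and when mTORC1 is off, TFEB, TFE3 and MITF move to the nucleus and bind short E-box elements, named CLEAR elements, in front of many lysosomal genes. In ES cells the comparison of Thr with Cys withdrawal asks how far the response of the same cells depends on which amino acid is missing.

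Total counts ran from 48763102 to 74962733 per library, and every one of the 40 genes had at least 109 counts in every library. The identity of the cells was checked with marker lists: the 8 ES cell markers, among them Pou5f1 and Nanog, summed to 3728 to 4217 CPM, the counts scaled to a library of fixed size, in the 9 libraries. Of the 8, 4 rose and 4 fell without Thr, from -0.42 for Nanog to 0.85 for Klf4 on the log2 scale, and 3 rose and 5 fell without Cys, from -0.50 for Tdgf1 to 0.26 for Esrrb. The 4 fibroblast markers in the table summed to at most 14.9 CPM and the 6 germ layer markers to at most 17.2 CPM, while Pou5f1 alone reached 858 CPM in an unstarved library. Of the macrophage list, with many genes rich in lysosomes, only Mrc1 was in the table. It stood at up to 7.16 CPM in unstarved, 8.32 to 8.64 CPM in Cys-starved and 18.0 to 20.3 CPM in Thr-starved libraries. Its part in the results was not tested, and the other 5 markers of that list were not analysed here.

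Because TFEB family proteins bind the letters CACGTG, and most strongly the longer core TCACGTGA, the windows from 250 bases before to 50 bases after each RefSeq transcription start (build GRCm38.p6) were searched for both. Both motifs read the same on either strand, and every TCACGTGA also counts as a CACGTG. A window was at hand for 33 of the 40 genes. The longer core stood in the windows of 8 of these 33 genes (24.2%), against 240 of the 12168 tested genes with a window (1.97%), and CACGTG in those of 13 (39.4%), against 11.3%. The windows of Tfeb, Tfe3 and Mitf held neither. The 240 genes include the 8. Because CLEAR elements are known from lysosomal genes, the higher share among such genes is no independent result, and it was not tested. Stretches of 7 windows are shown here because they carry TCACGTGA, or more than 1 copy of CACGTG, wholly before the start, with TCACGTGA in capitals, or CACGTG in capitals where only those 6 letters matched, written 5′ to 3′ on the strand of the gene.
Mcoln1, calcium channel, plus strand, chr8:3500463-3500490: ggcgccccgcTCACGTGAccgcggcgca
Lamp1, membrane glycoprotein, plus strand, chr8:13159084-13159160: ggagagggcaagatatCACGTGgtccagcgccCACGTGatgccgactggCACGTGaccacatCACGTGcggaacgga
Atp6v0b, proton ring subunit, minus strand, chr4:117887330-117887381: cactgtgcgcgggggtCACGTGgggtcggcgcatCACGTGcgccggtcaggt
Atp6v1a, catalytic pump subunit, minus strand, chr16:44139369-44139406: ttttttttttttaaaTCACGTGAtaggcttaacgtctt
Ctsa, protective carboxypeptidase, plus strand, chr2:164833745-164833772: acaatgagcaaactgTCACGTGAtgcag
Ctsd, aspartic protease, minus strand, chr7:142387909-142387936: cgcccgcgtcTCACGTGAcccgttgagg
Gla, alpha-galactosidase, minus strand, chrX:134601216-134601243: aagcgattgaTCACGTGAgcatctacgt

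Glb1, Naglu and Ctsl held a single CACGTG before the start and no longer core, and the longer cores of Atp6v0d1, Clcn7 and Atp6v0e lay across or after the start, so these 6 are not printed. The motifs lay close together in some of the printed stretches. Lamp1 held 4 copies of CACGTG within its last 77 bases before the start, and none of them was flanked on both sides by the letters of the longer core. Atp6v0b held 2 copies of CACGTG in 52 bases. The windows of Mcoln1, Ctsd, Gla and Ctsa each held a further CACGTG outside the printed stretch. Counted from the start it began at base -71, -245, -194 and 6, and for Gla and Ctsa it was part of the longer core. The stretches of Ctsa, Ctsd and Mcoln1 lie in exons of other annotated transcripts of the same gene (GENCODE M21) and that of Gla in exons of Hnrnph2, whereas that of Lamp1 overlaps no annotated exon. In these letters a match is a description, not evidence that a factor binds there.

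Most of the lysosomal genes rose without Thr. Of the 40 genes, 29 rose and 9 fell after 3 h without Thr (edgeR quasi-likelihood test, Benjamini-Hochberg adjusted p of 0.05 or less), and Atp6v0a1 and Naglu did not pass. The 9 include Tfeb, whose direction depended on the processing. With the trends of GC content and exon length removed from each library, 29 rose and 8 fell. Among all 20143 tested genes 31.1% rose and 31.9% fell, and of the 13220 genes averaging 2 CPM or more, which include all 40, 39.6% rose and 39.1% fell, so the 72.5% of lysosomal genes that rose lay above both backgrounds and the 22.5% that fell lay under both. The median log2 fold change of the 40 genes was 0.33, against -0.016 over all tested genes. For 38 of the 40 genes the ranges of Thr-starved and unstarved libraries were apart. They were also apart for 66.5% of all tested genes and for 10612 of the 13220 genes averaging 2 CPM or more. Together the 40 genes took 0.352% to 0.364% of the counts in Thr-starved libraries and 0.278% to 0.281% in unstarved ones. These are shares of the RNA of a whole culture, in which more cells with a transcript and more transcript per cell cannot be told apart.

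**Figure D1:**
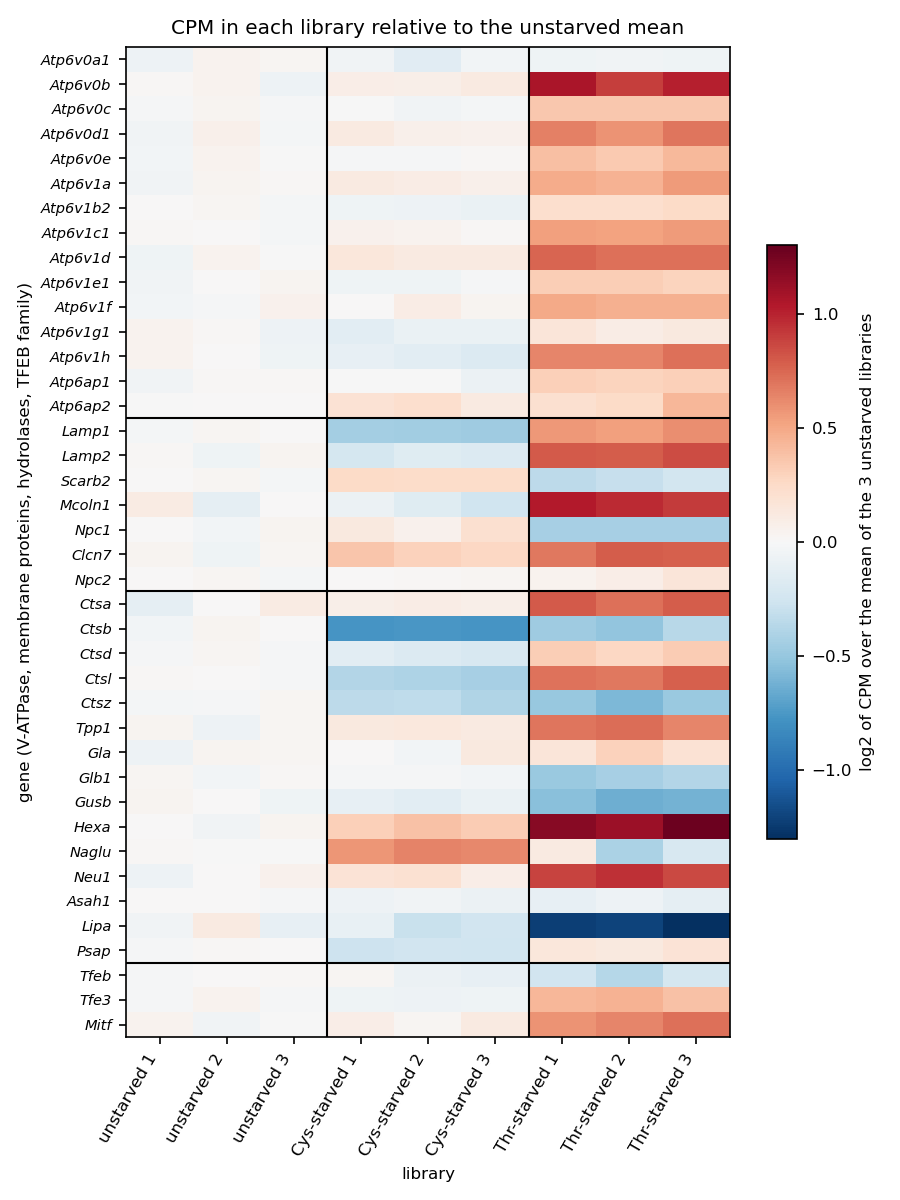
Each row is a gene and each column a library, with the color giving the log2 of its CPM over the mean CPM of the 3 unstarved libraries. The Thr-starved columns are red for most V-ATPase genes, with Hexa deepest in red and Lipa deepest in blue, whereas the Cys-starved columns are pale except for genes such as Lamp1, Ctsb, Ctsl and Naglu.

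The proton pump moved most uniformly. Of its 15 genes, 14 rose with Thr starvation (93.3%) and none fell, beside 39.6% and 39.1% of the genes averaging 2 CPM or more. The median log2 fold change of the 15 was 0.39. All 8 genes of the V1 sector rose, by 0.13 to 0.73 on the log2 scale, as did 4 of the 5 genes of the V0 sector and both accessory genes. Atp6v0a1, which encodes one of several alternative a subunits that line the proton path, read 29.3, 31.6 and 31.3 CPM in unstarved and 29.6, 29.8 and 29.6 CPM in Thr-starved libraries (log2 fold change -0.05 ± 0.044 (SE), adjusted p = 0.35). The groups overlapped for this gene alone among the 15.

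Atp6v0b (chr4:117884326-117887333, minus strand, GRCm38), which encodes the c″ subunit of the rotating proton ring, changed most among pump genes. It read 33.9, 34.8 and 32.2 CPM in unstarved and 70.1, 62.5 and 67.5 CPM in Thr-starved libraries, a log2 fold change of 0.99 ± 0.042 (SE, edgeR adjusted p = 2.2e-15), or 1.98-fold. The lowest Thr-starved library was well above the highest unstarved one. In Cys-starved libraries the same gene read 35.7, 35.3 and 36.4 CPM, and the difference of 0.09 ± 0.043 from unstarved libraries did not pass (adjusted p = 0.11). Of the exon length of Atp6v0b, 11.8% is shared with Gm12841 on the other strand, not analysed here.

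Next came Atp6v1d, a subunit of the central rotor shaft. Its unstarved libraries read 48.5, 52.0 and 50.2 CPM and its Thr-starved libraries 84.7, 82.7 and 82.4 CPM, a rise of 0.73 ± 0.032 on the log2 scale (adjusted p = 4.6e-15). Cys-starved libraries held 55.6, 54.7 and 54.4 CPM, all above every unstarved library, though the rise was only 0.13 ± 0.032 (adjusted p = 0.0032). The gene for the H subunit, Atp6v1h, which couples V1 to V0 and keeps free V1 from wasting ATP, went opposite ways. It measured 59.7, 58.3 and 55.9 CPM in unstarved libraries, 90.1, 90.0 and 95.2 CPM without Thr (log2 fold change 0.66 ± 0.034, adjusted p = 6.7e-14) and 53.8, 52.7 and 51.2 CPM without Cys (-0.14 ± 0.035, adjusted p = 0.0023). In neither starvation did the libraries overlap the unstarved ones.

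The B subunit of the ATP-hydrolysing head is encoded by Atp6v1b2. Unstarved libraries held 282, 286 and 277 CPM of it, Thr-starved libraries 327, 327 and 334 CPM and Cys-starved libraries 271, 269.8 and 266 CPM. Its rise without Thr was 0.23 ± 0.022 (adjusted p = 4.7e-09), and its fall without Cys was small, -0.07 ± 0.022 (adjusted p = 0.018). Leaving out unstarved replicate 2 or Cys-starved replicate 3 ended the latter call (adjusted p = 0.067 and 0.071). Atp6v1g1, a subunit of the outer stalk, had 64.1, 62.6 and 59.5 CPM in unstarved, 69.1, 66.6 and 68.0 CPM in Thr-starved and 56.6, 58.6 and 58.4 CPM in Cys-starved libraries. It rose by 0.13 ± 0.033 without Thr (adjusted p = 0.0017) and fell without Cys by 0.10 ± 0.033 on the log2 scale (adjusted p = 0.019). Leaving out unstarved replicate 1, unstarved replicate 2 or Cys-starved replicate 1 ended that second call (adjusted p = 0.1, 0.057 and 0.091).

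The accessory protein Atp6ap2, known as the prorenin receptor, takes part in assembling the pump. Its gene had 43.8, 44.3 and 44.0 CPM in unstarved libraries and 50.9, 52.4 and 59.2 CPM in Thr-starved libraries, the third of which stood above the other two. It rose by 0.30 ± 0.046 (adjusted p = 3.8e-06), but with the trends of GC content and exon length removed from each library the difference was 0.036 (adjusted p = 0.5). Cys-starved libraries read 50, 51.1 and 47.6 CPM, a rise of 0.17 ± 0.045 (adjusted p = 0.0045) that became 0.10 with those trends removed (adjusted p = 0.089).

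The remaining pump genes rose by similar steps without Thr. Atp6v0d1, the subunit at the foot of the rotor, rose by 0.65 ± 0.033, Atp6v1c1, which joins the stator to the membrane sector, by 0.54 ± 0.027, and the catalytic subunit gene Atp6v1a by 0.50 ± 0.029. Atp6v0c, which encodes most of the proton ring, rose by 0.34 ± 0.024, but its transcript is 99.7% identical over 387 bases to the pseudogene Atp6v0c-ps2, which itself carried 90.0 CPM on average, so how its counts were split is uncertain. The same holds for Atp6v1g1 and Gm13453 (99.4% over 357 bases, 18.6 CPM) and for Atp6v1f and AC169506.3 (98.5% over 202 bases, 12.4 CPM).

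Per kilobase of exon, the unstarved levels of the 15 pump genes spanned a wide range, from 4.68 CPM per kb for Atp6v0a1 to 76.0 CPM per kb for Atp6v1f, a rotor subunit. In Thr-starved libraries the same genes stood at 4.53 and 105 CPM per kb. Atp6v0b, the third of the 5 V0 genes at 16.4 CPM per kb in unstarved libraries, kept that place at 32.5 CPM per kb without Thr. The summed CPM of the pump genes was 1263 to 1297 in unstarved, 1266 to 1285 in Cys-starved and 1671 to 1723 in Thr-starved libraries.

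**Figure D2:**
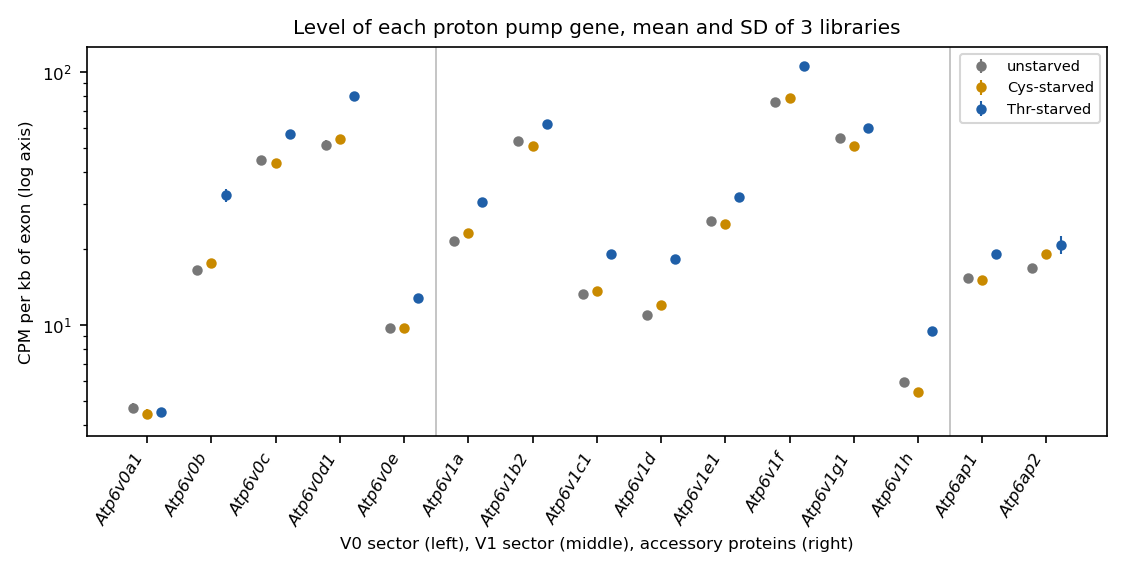
The mean level of each V-ATPase gene per kilobase of exon is drawn on a log axis for unstarved, Cys-starved and Thr-starved cells, with the SD of 3 libraries as bars. The Thr-starved point is the highest for every gene except Atp6v0a1, from 9.42 for Atp6v1h to 105 CPM per kb for Atp6v1f.

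Proteins of the lysosomal membrane split with Thr starvation. Of the 7 genes, 5 rose (71.4%) and 2 fell (28.6%), beside 39.6% and 39.1% of the genes averaging 2 CPM or more. The median was 0.57 on the log2 scale. The libraries of both groups were apart for all 7. So were those of 66.5% of all tested genes and of 10612 of the 13220 averaging 2 CPM or more. Those that rose encode the structural glycoproteins Lamp1 and Lamp2, the calcium channel Mcoln1, the chloride and proton exchanger Clcn7 and, by only 0.10 ± 0.034, the soluble cholesterol carrier Npc2 (adjusted p = 0.015). The call for Npc2 was lost without unstarved replicate 3 or Thr-starved replicate 3 (adjusted p = 0.063 and 0.12).

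Mcoln1 (chr8:3500457-3515232, plus strand), which encodes the TRPML1 channel that releases lysosomal calcium, read 17.7, 15.1 and 16.5 CPM in unstarved and 33.4, 32.2 and 30.8 CPM in Thr-starved libraries. It rose 1.95-fold (log2 fold change 0.97 ± 0.058, adjusted p = 1.1e-12). Its Cys-starved libraries read 15.6, 14.7 and 13.7 CPM and overlapped the unstarved ones. The fall of 0.17 ± 0.061 on the log2 scale passed narrowly (adjusted p = 0.039) and was lost in a fit of only both groups (adjusted p = 0.059) and without unstarved replicate 1 or 3 or Cys-starved replicate 2 or 3 (adjusted p = 0.22, 0.087, 0.076 and 0.19).

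Lamp1 and Lamp2, which coat the inner face of the membrane with sugars, rose without Thr and fell without Cys. Per kilobase Lamp1 was the most abundant of all 40 genes in unstarved cells, at 149.5 CPM per kb. It measured 394, 406 and 400.1 CPM in unstarved, 590.4, 579 and 609 CPM in Thr-starved and 295, 293 and 289.5 CPM in Cys-starved libraries. On the log2 scale it gained 0.57 ± 0.022 without Thr (adjusted p = 5.5e-16) and changed by -0.45 ± 0.022 without Cys (adjusted p = 5.4e-13), and the 3 groups were fully apart. Its exons share 249 bases with Grtp1 on the other strand, which fell without Thr (log2 fold change -0.72).

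Lamp2 stood at 2.74 CPM per kb in unstarved cells, with 26.5, 25.2 and 26.8 CPM in unstarved libraries. Thr-starved libraries held 45.5, 45.1 and 47.2 CPM (log2 fold change 0.81 ± 0.040, adjusted p = 4.3e-14) and Cys-starved ones 22.3, 23.5 and 23.1 CPM (-0.19 ± 0.042, adjusted p = 0.0011). As with Lamp1, no library of one group reached the range of another.

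Clcn7, which exchanges chloride for protons across the lysosomal membrane, rose in both starvations. It stood at 28.0, 26.4 and 27.9 CPM in unstarved, 44.0, 47.4 and 47.0 CPM in Thr-starved and 35.1, 33.8 and 33.0 CPM in Cys-starved libraries. The rises were 0.75 ± 0.042 without Thr (adjusted p = 3e-13) and 0.31 ± 0.042 without Cys (adjusted p = 4.1e-06).

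Scarb2 and Npc1 moved the other way from the LAMP genes. Scarb2 encodes LIMP-2, the receptor that carries glucocerebrosidase to the lysosome, and it read 90.9, 92.3 and 89.5 CPM in unstarved, 71.8, 73.7 and 76.8 CPM in Thr-starved and 108, 107 and 107 CPM in Cys-starved libraries. It fell without Thr (log2 fold change -0.29 ± 0.029, adjusted p = 7.4e-09) and rose without Cys (0.24 ± 0.029, adjusted p = 6.1e-07). Npc1, which moves cholesterol out of the lysosome, had 39.2, 38.2 and 40 CPM in unstarved, 29.0, 28.9 and 28.9 CPM in Thr-starved and 42.7, 40.7 and 45.2 CPM in Cys-starved libraries. Its fall without Thr was -0.43 ± 0.042 (adjusted p = 3.9e-09), with all 3 Thr-starved libraries under the unstarved range. Its rise without Cys, 0.13 ± 0.040 (adjusted p = 0.011), was lost with the authors' own size factors (adjusted p = 0.079) and without unstarved replicate 2 or Cys-starved replicate 3 (adjusted p = 0.055 and 0.095). Npc1 shares 511 exon bases with Rmc1 on the other strand. Rmc1 moved the same way, by -0.68 without Thr and, without passing, by 0.15 without Cys.

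The hydrolases were the most mixed group. Of 15 genes, 8 rose (53.3%), 6 fell and Naglu did not pass with Thr starvation. Beside them, 39.6% of the genes averaging 2 CPM or more rose and 39.1% fell. The share of hydrolase genes that fell was thus near that background, and the share that rose lay above it, a difference that was not tested. The median was 0.15, with a range from -1.26 to 1.20. Among the 6 proteases, the genes of cathepsins A, D and L and of tripeptidyl peptidase Tpp1 rose and those of cathepsins B and Z fell. Of the 6 glycosidases 3 rose and 2 fell, and both lipid hydrolases, Lipa and Asah1, fell.

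Hexa (chr9:59539540-59565109, plus strand), the alpha subunit of the hexosaminidase that degrades GM2 ganglioside, rose more than any other of the 40 genes. Unstarved libraries read 23.1, 22.3 and 23.5 CPM, Thr-starved libraries 52.1, 49.7 and 55.8 CPM and Cys-starved libraries 28.6, 29.9 and 28.9 CPM. It rose 2.29-fold without Thr (log2 fold change 1.20 ± 0.045, adjusted p = 2.5e-16) and by 0.34 ± 0.046 on the log2 scale without Cys (adjusted p = 3.2e-06). Of its exon length 12.8% is shared with Tmem202 on the other strand, not analysed here. Neu1, the sialidase that removes terminal sialic acids, stood at 7.92, 8.31 and 8.59 CPM in unstarved and 15.2, 16.0 and 15.0 CPM in Thr-starved libraries, a rise of 0.90 ± 0.064 (adjusted p = 2.3e-11). Cys-starved libraries held 9.35, 9.52 and 8.79 CPM of it, each above every unstarved library, and the difference of 0.16 ± 0.066 did not pass (adjusted p = 0.068). Ctsa, the carboxypeptidase that holds Neu1 and the beta-galactosidase Glb1 together in a stable complex, rose by 0.77 ± 0.042 without Thr (adjusted p = 1.9e-13), whereas Glb1 itself fell (-0.43 ± 0.037, adjusted p = 6e-10). Glb1 shares 165 exon bases with Tmppe on the same strand, which also fell without Thr (-0.51). Ctsa shares 495 with Pltp on the other strand, which fell (-0.41).

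Lipa (chr19:34492318-34527474, minus strand), the acid lipase that frees cholesterol and fatty acids from lipoprotein lipids, changed most of the 40 genes. It read 12.4, 13.9 and 11.9 CPM in unstarved and only 5.47, 5.54 and 5.07 CPM in Thr-starved libraries (log2 fold change -1.26 ± 0.080, adjusted p = 3.6e-12), 0.418 times the unstarved level. Its Cys-starved libraries, at 12.0, 10.5 and 10.8 CPM, overlapped the unstarved ones. The fall there (-0.20 ± 0.072, adjusted p = 0.035) was lost without unstarved replicate 2 or Cys-starved replicate 2 or 3 (adjusted p = 0.22, 0.15 and 0.11).

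Cathepsins L and D, both endopeptidases, rose without Thr and fell without Cys. Ctsl had 88.8, 87.7 and 86.7 CPM in unstarved, 143, 141 and 149.8 CPM in Thr-starved and 67.3, 66.4 and 65.0 CPM in Cys-starved libraries. It rose by 0.72 ± 0.029 without Thr (adjusted p = 7.3e-16) and changed by -0.41 ± 0.029 without Cys (adjusted p = 3.3e-10). For Ctsd, unstarved libraries read 81.2, 83.5 and 80.9 CPM, Thr-starved ones 102, 98.4 and 103 CPM and Cys-starved ones 74.5, 72.4 and 71.0 CPM (0.31 ± 0.029, adjusted p = 4.2e-09, and -0.17 ± 0.030, adjusted p = 7.2e-05). Of the exon length of Ctsd, 34.4% is shared with the gene model Gm49369 on the same strand, and 26.9% of that of Ctsl with Gm47123 on the other strand, neither of which was analysed here.

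Psap, the precursor of the saposins that present lipids to the hydrolases, had a similar pattern at smaller size. Its libraries read 120.0, 122 and 121 CPM unstarved, 134, 132 and 137 CPM without Thr and 100.4, 102 and 101 CPM without Cys. The rise of 0.15 ± 0.025 (adjusted p = 2.2e-05) and the fall of -0.26 ± 0.025 (adjusted p = 3.8e-08) were each beyond the spread of the libraries.

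Cathepsin B fell in both starvations. Ctsb measured 71.2, 75.0 and 73.5 CPM in unstarved, 53.2, 51.2 and 56.9 CPM in Thr-starved and 43.1, 43.4 and 43.0 CPM in Cys-starved libraries. The log2 fold changes were -0.44 ± 0.036 without Thr (adjusted p = 3.1e-10) and -0.76 ± 0.037 without Cys (adjusted p = 3.7e-13), the latter the deepest fall of the 40 genes in Cys-starved cells. Ctsb shares 774 bases, 12.8% of its exon length, with Fdft1 on the other strand. Fdft1, an enzyme of sterol synthesis, fell without Thr (-0.92) and differed by -0.0026 without Cys (adjusted p = 0.97).

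Naglu, which removes N-acetylglucosamine from heparan sulfate, was the least abundant of the 40 genes per kilobase in unstarved cells, at 1.14 CPM per kb. It had 3.08, 3.03 and 3.02 CPM in unstarved and 4.51, 4.74 and 4.68 CPM in Cys-starved libraries, the largest rise of the 40 genes without Cys (0.61 ± 0.11, adjusted p = 0.00016). Thr-starved libraries scattered at 3.29, 2.29 and 2.63 CPM around a log2 difference of -0.16 ± 0.12 (adjusted p = 0.27). Without Thr-starved replicate 1 that difference was -0.29 (adjusted p = 0.048).

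**Figure D3:**
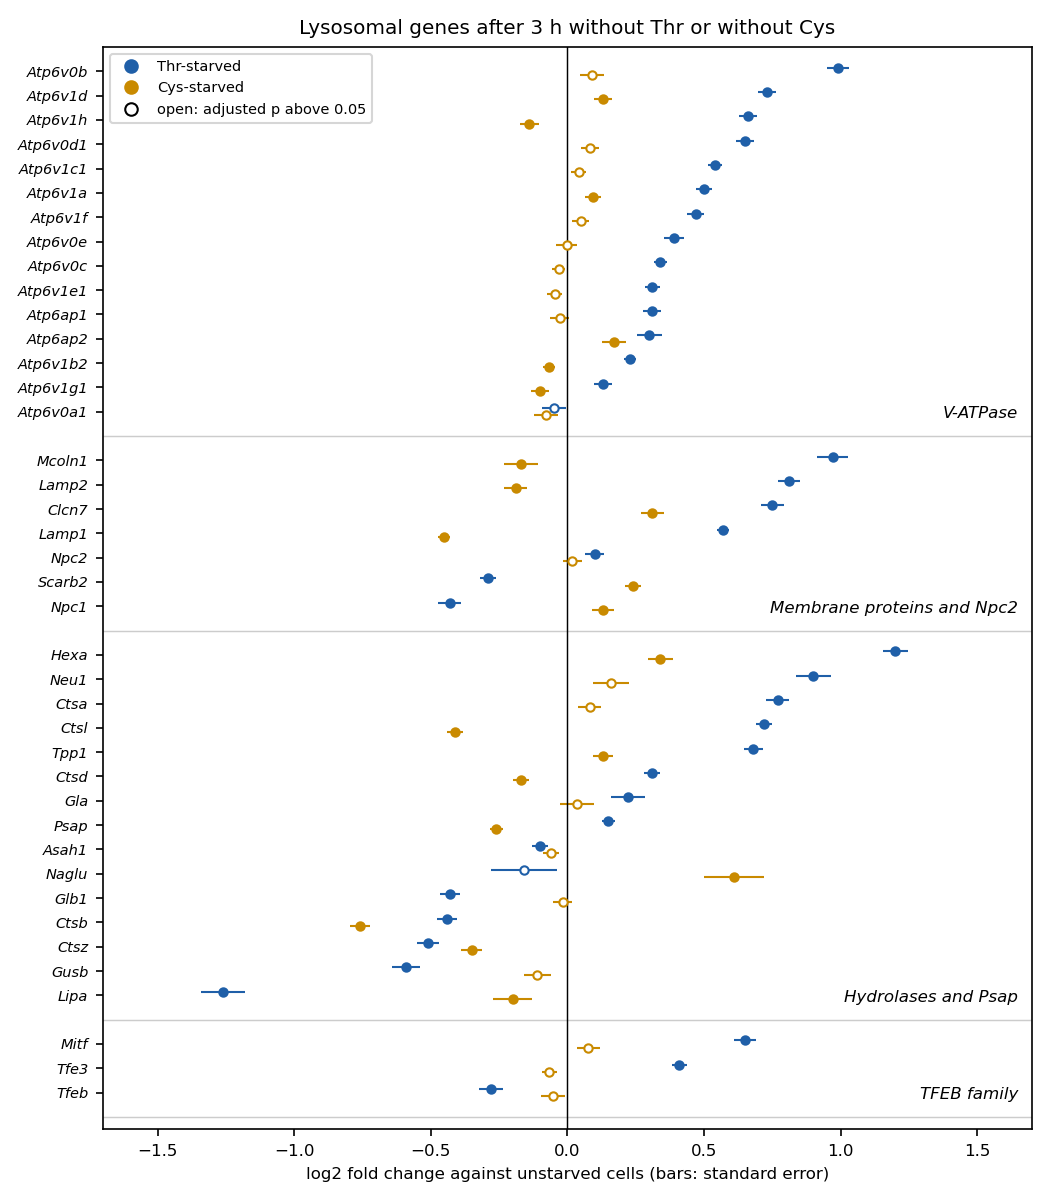
Points give the log2 fold change of each gene against unstarved cells, blue without Thr and orange without Cys, with the standard error as bars and open points where the adjusted p is above 0.05. Blue points of the V-ATPase genes lie to the right of 0 apart from Atp6v0a1, while blue points of the hydrolases run from -1.26 for Lipa to 1.20 for Hexa.

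Of the transcription factor genes, Tfe3 and Mitf rose without Thr. Tfe3 is the most abundant of the 3 per kilobase in unstarved cells, at 13.8 CPM per kb against 7.10 for Tfeb and 5.45 for Mitf. Tfe3 read 126, 131 and 126 CPM in unstarved and 171, 174 and 165 CPM in Thr-starved libraries (log2 fold change 0.41 ± 0.026, adjusted p = 3.6e-12). Mitf rose as well, from 34.9, 32.8 and 33.6 CPM to 50.7, 52.4 and 55.4 CPM (0.65 ± 0.041, adjusted p = 2.7e-12).

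Tfeb fell in the fit without correction, from 39.8, 40.4 and 40.5 CPM to 33.8, 31.1 and 34.3 CPM (log2 fold change -0.28 ± 0.044, adjusted p = 6.4e-06), but the direction turned to 0.17 (adjusted p = 0.0019) with the trends of GC content and exon length removed from each library. No direction is therefore given for Tfeb. In Cys-starved libraries Tfeb read 41.0, 38.2 and 37.3 CPM, Tfe3 122, 121 and 122 CPM and Mitf 35.8, 34.5 and 36.6 CPM. None of the 3 passed the test there (adjusted p = 0.38, 0.057 and 0.17 in edgeR). All 3 Tfe3 libraries without Cys lay under the unstarved ones, and the difference of -0.07 ± 0.027 passed in DESeq2 (adjusted p = 0.033), with RLE normalization (0.043), the authors' size factors (0.0022) or filterByExpr (0.048), without Thr-starved replicate 3 (0.042) and with GC and length trends removed (0.0016), and in no other alternative.

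Against this background the letters in front of the genes can be set beside the changes. All 8 genes with TCACGTGA in their window, namely Ctsa, Ctsd, Mcoln1, Atp6v0d1, Atp6v1a, Clcn7, Atp6v0e and Gla, rose without Thr, with a median of 0.57 and a range of 0.22 to 0.97 on the log2 scale. Of the 25 genes whose window lacked it, 17 rose and 6 fell, with a median of 0.31. Across all tested genes with a window, 57.1% of the 240 with the longer core rose and 24.2% fell without Thr, against 34.3% and 35% of those without it. Without Cys, 2 of the 8 genes rose and 2 fell, and 25.4% of the 240 rose and 21.7% fell, near the 21.4% and 19.4% of tested genes whose window lacked it. Of the 5 genes with CACGTG but no longer core, Lamp1 (0.57), Atp6v0b (0.99) and Ctsl (0.72) rose without Thr, Glb1 fell (-0.43) and Naglu did not pass (-0.16).

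Cys starvation gave a smaller and evenly divided response. Of the 40 genes, 9 rose (22.5%), 12 fell and 19 did not pass. Over all tested genes 17.5% rose and 18.8% fell, and of those averaging 2 CPM or more 23.5% rose and 27.5% fell, so the lysosomal genes were called about as often as other expressed genes. The median log2 fold change was -0.02, against 0.01 over all tested genes. The libraries of both groups were apart for 25 of the 40 genes, against 46.4% of all tested genes. Of the 13220 genes averaging 2 CPM or more they were apart for 7961, a share near that of the 40. With the authors' size factors, 6 of the 40 genes rose and 18 fell, and over all genes the share of calls that were higher went from 48.2% to 36.8%.

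The pump as a whole differed little from unstarved cells without Cys. Atp6v1a, Atp6v1d and Atp6ap2 rose (20.0% of the 15), and Atp6v1b2, Atp6v1g1 and Atp6v1h fell (20.0%). Among genes averaging 2 CPM or more, 23.5% rose and 27.5% fell. The other 9 pump genes did not pass, and every difference lay between -0.14 and 0.17 on the log2 scale. Atp6v1a changed by 0.10 ± 0.029 (adjusted p = 0.012) and lost the call with the authors' size factors (adjusted p = 0.18) and without unstarved replicate 1 or Cys-starved replicate 1 (adjusted p = 0.095 and 0.063). None of the 5 V0 genes passed in the fit of all libraries, although Atp6v0d1 (0.08, adjusted p = 0.063) passed at 10 or more counts in every library (adjusted p = 0.034), in a fit of only both groups (0.03) and without unstarved replicate 2 or Thr-starved replicate 3 (0.01 and 0.046). With the authors' size factors Atp6v0a1, Atp6v0c and the V1 gene Atp6v1e1 passed as lower (adjusted p = 0.035, 0.02 and 0.013). With the trends of GC content and exon length removed, the calls without Cys of Atp6v1a, Atp6v1d, Atp6v1g1, Atp6ap2 and Npc1 were lost. Among pump genes, Atp6v1e1 then passed as lower and Atp6v1f as higher (adjusted p = 0.041 and 0.015).

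Without Cys the summed level of the membrane group was lower with Lamp1 counted and higher without it. Of the 7 membrane genes, 3 rose (Clcn7, Scarb2 and Npc1, 42.9%) and 3 fell (Lamp1, Lamp2 and Mcoln1, 42.9%). Beside them, 23.5% of the genes averaging 2 CPM or more rose and 27.5% fell. The summed CPM of the group was 566 to 572 against 649 to 657 in unstarved libraries. The 6 genes other than Lamp1 summed to 273 to 277 CPM without Cys and 251 to 255 CPM in unstarved libraries. The 15 hydrolase genes had 3 that rose (Naglu, Hexa and Tpp1) and 6 that fell. Cathepsins made up 4 of the 6: besides Ctsb, Ctsl and Ctsd, Ctsz fell by 0.35 ± 0.039 on the log2 scale (adjusted p = 3e-07), and the others were Psap and Lipa. Tpp1, which trims tripeptides from protein ends, rose by 0.13 ± 0.035 (adjusted p = 0.0066), a call lost with the authors' size factors (adjusted p = 0.064) and without unstarved replicate 2 (adjusted p = 0.054). The summed CPM of the hydrolases was 612 to 619.7 without Cys and 691 to 699.9 in unstarved libraries.

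**Figure D4:**
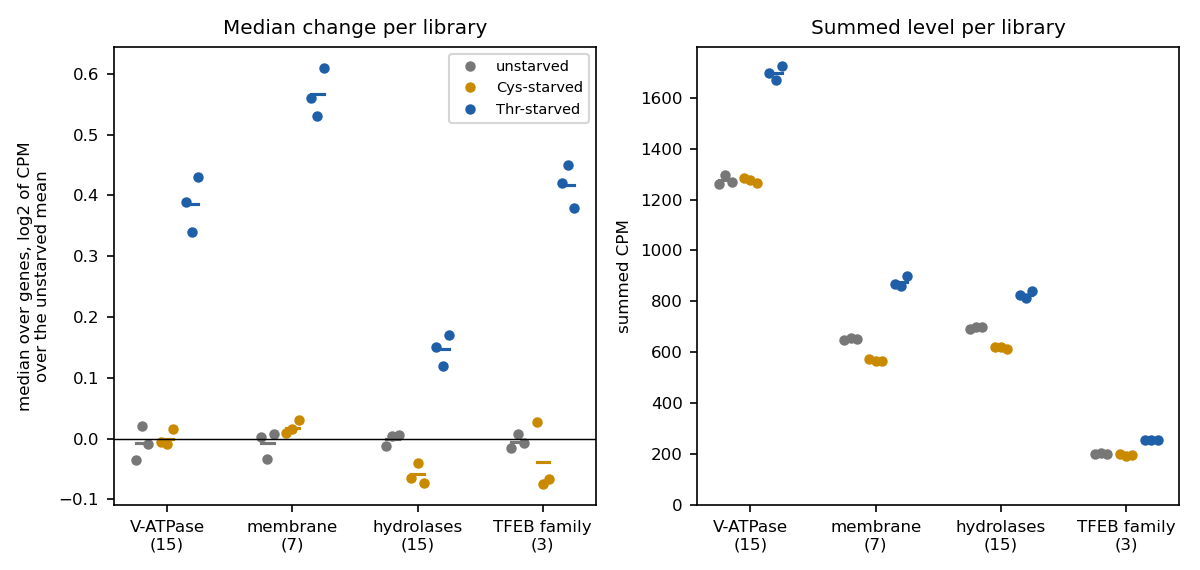
The left panel shows, for each library, the median over the genes of a group of the log2 CPM relative to the unstarved mean, and the right panel the summed CPM, with short lines at the mean of 3 libraries. V-ATPase medians reach 0.34 to 0.43 without Thr and stay between -0.0087 and 0.015 without Cys, and the sums of membrane and hydrolase genes without Cys lie under those of unstarved cells, although without Lamp1 the other 6 membrane genes sum to 273 to 277 CPM against 251 to 255 CPM.

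Comparing the starvations with unstarved cells uses the same 3 unstarved libraries, so the starvations were also compared directly. Thr-starved against Cys-starved libraries had 30 of the 40 genes higher (75.0%) and 8 lower (20.0%), where 30.4% of all tested genes were higher and 31.6% lower, and 40.8% and 37.6% of those averaging 2 CPM or more. The median log2 difference was 0.40, against -0.018 over all tested genes. Libraries were apart for 37 of the 40 genes, against 65.8% of all tested genes and 10522 of the 13220 averaging 2 CPM or more. Atp6v0a1 and Asah1, the acid ceramidase, did not pass (log2 differences 0.03 and -0.04).

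The largest direct differences were at Ctsl (1.13 ± 0.029, adjusted p = 5.3e-19), Mcoln1 (1.13 ± 0.058, adjusted p = 9.1e-14), Lipa (-1.06 ± 0.081, adjusted p = 9.8e-11), Lamp1 (1.02 ± 0.022, adjusted p = 3.5e-20) and Lamp2 (1.00 ± 0.041, adjusted p = 1.5e-15). Of the 15 pump genes, 14 were higher without Thr than without Cys, by a median of 0.39 over the 15, and Atp6v0b (0.90 ± 0.041) and Atp6v1h (0.81 ± 0.034) led them. For Atp6ap2 that difference of 0.13 ± 0.045 was lost without Cys-starved replicate 3 or Thr-starved replicate 3 (adjusted p = 0.07 and 0.21) and turned to -0.062 with GC and length trends removed. Ctsb, which fell in both starvations, was higher without Thr than without Cys (0.32 ± 0.038, adjusted p = 1.2e-07), and Ctsz was lower (-0.16 ± 0.041, adjusted p = 0.0015), a direction that turned to 0.046 (adjusted p = 0.34) with GC and length trends removed. Scarb2 and Npc1 were lower without Thr than without Cys, by -0.53 ± 0.029 and -0.57 ± 0.041.

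Other genes of the same organelle were counted from lists outside the 40. Of 90 such genes in the table, 40 rose (44.4%) and 23 fell (25.6%) without Thr, with a median of 0.09, beside 39.6% and 39.1% of the genes averaging 2 CPM or more. Without Cys 21 rose and 21 fell (23.3% each, median 0.06), beside 23.5% and 27.5%. The difference between these lists and the 40 genes was not tested. Among 14 other V-ATPase subunits and assembly factors, 7 rose and 2 fell without Thr, the latter being Atp6v0a4 (-1.95, from 2.18 to 0.564 CPM) and Tcirg1 (-0.91, from 6.16 to 3.27 CPM), both alternative a subunits like Atp6v0a1. Without Cys 4 of the 14 rose and none fell, led by Atp6v0e2, a V0 subunit (0.47), and Ncoa7, which binds the V1 sector (0.21).

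Of 24 other membrane proteins of the lysosome, 9 rose (37.5%) and 7 fell (29.2%) without Thr, near the shares of the expressed genes, with a median of 0.02. Cln3, whose loss causes a childhood storage disease, rose by 1.05 and Tmem106b, a lysosomal membrane glycoprotein, by 1.03. Without Cys 5 rose and 6 fell, and the tetraspanin Cd63 changed by -0.77, from 46.8 to 27.4 CPM. Abcb9, a lysosomal peptide transporter, also passed (adjusted p = 0.043), but with 3 to 26 counts in a library and overlapping groups at 0.129 CPM in unstarved and 0.327 CPM in Cys-starved cells, and no fold is given for it. Of 34 other hydrolases and activators, 12 rose (35.3%) and 11 fell (32.4%) without Thr, again near those shares, with Galc, which degrades galactosylceramide, at 1.06 and Gm2a, the activator that lifts GM2 out of membranes for the hexosaminidase, at -1.02. Without Cys 9 rose and 9 fell, led by Grn, the progranulin gene (-0.77), and the hyaluronidase gene Hyal2 (-0.66).

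Of 10 genes that deliver the enzymes, 7 rose (70.0%) and 2 fell (20.0%) without Thr, beside 39.6% and 39.1% of the expressed genes. Gnptab, the catalytic part of the enzyme that makes the mannose 6-phosphate tag, fell (-0.76) while Gnptg, its gamma subunit, rose (0.75). Without Cys 1 rose, Igf2r (0.37), a receptor for the tag, and 3 fell, of which Nagpa, which uncovers the tag, changed most (-0.19). Of 8 genes tied to the control of the TFEB family, 5 rose and 1 fell without Thr: Flcn, the folliculin gene that lets mTORC1 act on TFEB, rose by 0.87 and Rragd, a GTPase of the same switch, fell (-0.86). Without Cys 2 rose and 3 fell, among them Rragc (-0.25) and Zkscan3 (0.22).

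In the direct comparison the leading genes of these lists were Atp6v0a4 (-1.92) and Tcirg1 (-0.99), Abcb9 (lower, adjusted p = 0.049, groups overlapping) and Cln3 (1.01), Grn (1.07) and Sgsh, a heparan sulfatase (-1.04), Gnptab (-0.76) and Sumf1, which activates sulfatases (0.64), and Rragc (0.88). Tfec, the least expressed relative of TFEB, also passed, but at 0.167 and 0.0271 CPM with at most 10 counts in a library, and no fold is given for it.

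**Figure D5:**
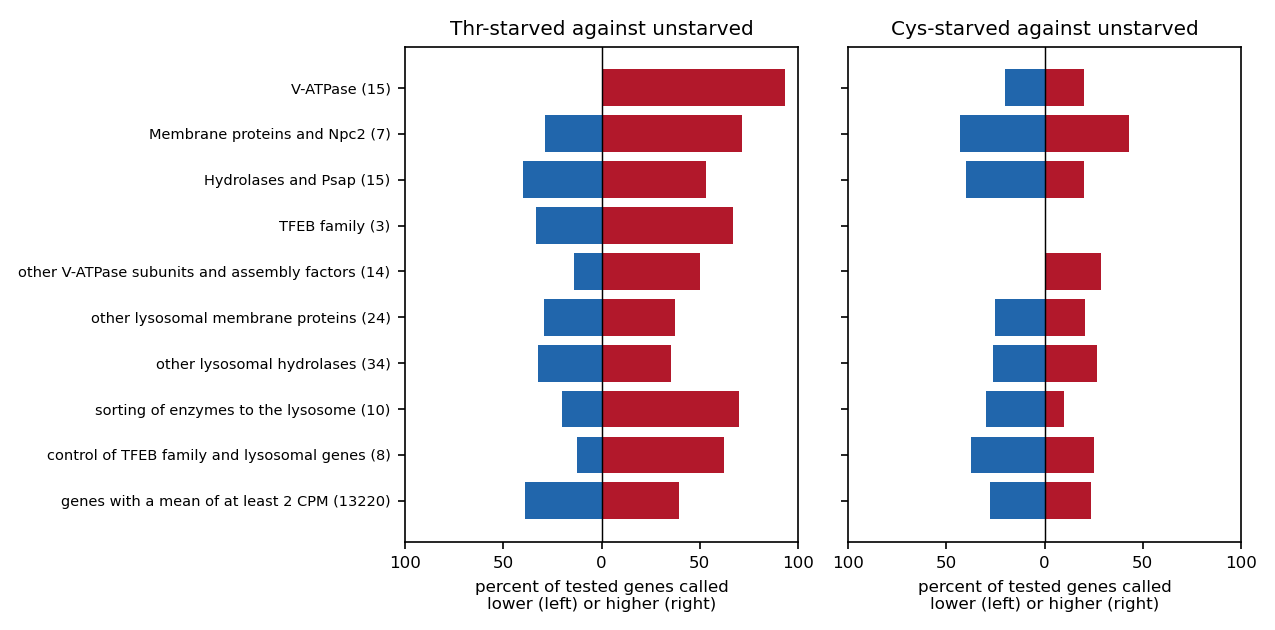
Bars show the percent of tested genes of each list that were called higher (right, red) or lower (left, blue) without Thr and without Cys, with the number of genes in brackets and all genes averaging 2 CPM or more in the lowest row. Without Thr the V-ATPase row reaches 93.3% higher with no bar on the lower side, against 39.6% and 39.1% for the expressed genes.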

How the data were processed

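The authors mapped paired-end reads to GRCm38 with STAR 2.7.4a, used HTSeq to count reads over genes, and the raw counts were deposited. How HTSeq treated strand and overlapping genes is not given in the sources used here. A second deposited table holds signal values, which the authors made by dividing the counts by a size factor per library, and it served only to recover those factors.

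The raw counts of all 9 libraries were fitted with edgeR 4.0.16 (R 4.3.3, TMM, quasi-likelihood F test, genes with at least 1 count, Benjamini-Hochberg adjustment over 20143 genes, threshold 0.05), checked on simulated data. CPM values use TMM library sizes, and a level per kb divides by the exon length in GENCODE M21, from which coordinates, symbols and overlaps come. Near-identical transcripts (at least 95% over 200 bases) were found with BLAST 2.17.0. Promoter windows came from RefSeq. The 40 genes and all lists were chosen with earlier results of these data known. Values in every library are given for the 3 largest changes per group and starvation, the TFEB family and genes called in opposite directions. Alternatives were DESeq2 1.42.0, RLE, the deposited size factors, filterByExpr, at least 10 counts in every library, fits of only 2 groups, a replicate block, each library left out, an adjusted p of 0.01 or less and, chosen after seeing the data, loess trends of GC content and length removed.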

Additional observations from a re-analysis of the deposited data

How the results depend on the processing

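The 40 genes in 3 comparisons give 120 fold changes. Of these, 91 stayed on their side of the threshold in every alternative fit and never turned where a fit called them. Turns between fits that both fell short of the threshold were not counted. With Thr starvation the number of genes that rose stayed between 28 and 29 and the number that fell between 9 and 10 when each of the 9 libraries was left out in turn, and with Cys starvation between 8 and 10 and between 9 and 13. Directly compared, 28 to 30 were higher and 8 lower in those fits. Over all tested genes these fits called 12096 to 12689 genes with Thr, 6520 to 7475 with Cys and 11788 to 12540 between the starvations. With the trends of GC content and exon length removed, chosen after seeing the data, 4 of the 120 turned: Tfeb without Thr (0.17) and against Cys (0.22), and against Cys also Atp6ap2 (-0.062) and Ctsz (0.046); the cause was not tested. The median of the 7 membrane genes without Cys, near 0, turned to -0.024 with the deposited size factors, which set all genes lower in that comparison, and to -0.0086 with those trends removed.

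Same-numbered libraries did not deviate together from their group means (correlations over 11410 genes of 0.106, -0.073 and 0.0103 with Thr, -0.0597, -0.0486 and -0.0787 with Cys, and -0.135, -0.0425 and -0.244 between the starvations). With 3 libraries per group these values cannot tell whether same-numbered libraries were prepared together, and nothing in the labels says that they pair. With the replicate block, 29 of the 40 genes rose and 9 fell with Thr, 9 rose and 12 fell with Cys, and 29 were higher and 8 lower between the starvations.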
